A study of Mus musculus with 6 samples.

Results

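The 10 genes Psmb8, Psmb9, Psmb10, Psme1, Psme2, Tap1, Tap2, Tapbp, Tapbpl and Nlrc5 make, transport and load the peptides that MHC class I molecules display. They were taken by symbol from the platform annotation of an Illumina mouse bead array, which held 15 probes for them among 25697. A gene counted as measured where 3 or more of the 6 arrays gave one of its probes a detection p below 0.05, and 9 of the 10 genes were measured, through 12 probes. They stand among 6331 rows tested, each a gene or an unnamed probe. Psme2 was the exception: its only probe gave intensities of 89.1 to 94.1, with detection p between 0.118 and 0.184, and was detected on 0 arrays.

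The arrays held total RNA of flow-sorted dendritic cells (DCs) from mouse peripheral lymph nodes. DCs show antigen to naive T cells and start their responses. In the antibiotics group (n = 3) the mice had received broad-spectrum antibiotics by gavage for 10 days. The samples of the other group (n = 3) are labelled as given no treatment, which names no gavage, so that gavage and antibiotics cannot be told apart. Strain, age, sex, the antibiotics, the gate of the sort and whether each array is a separate animal or a pool are not given in the sources used here, and p-values therefore reflect the spread of these samples alone, and that spread may be technical. On antibiotics replicates 1, 2 and 3, 6876, 7370 and 7299 probes were detected, against 7428, 7422 and 7674 on the untreated replicates. Every antibiotics array thus had fewer detected probes than every untreated one. The part of this in the levels of the 9 genes was not tested. Antibiotics replicate 1 stood apart on the first principal component, at -25.3 against 1.36 to 11.5 for the other arrays. The DC genes Itgax (CD11c) and Zbtb46 were detected on all 6 arrays, and Flt3 was not measured. The T cell receptor genes Cd3e, Cd3d and Cd3g, the NK cell gene Ncr1 and the B cell genes Cd79a, Ms4a1 and Pax5 were not measured either. Other genes of those lists were: the NK cell genes Prf1 and Klrk1 and the B cell gene Cd79b were detected on all 6 arrays, the B cell gene Cd22 on 5 and the T cell gene Cd28 on 4.

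In every nucleated cell the proteasome cuts cytosolic proteins into peptides. Interferons induce replacement catalytic subunits, the products of Psmb8, Psmb9 and Psmb10, which take the places of the constitutive subunits encoded by Psmb5, Psmb6 and Psmb7 and form the immunoproteasome, and the PA28 activator of Psme1 and Psme2 caps it. TAP, the heterodimer of Tap1 and Tap2, pumps the peptides into the endoplasmic reticulum, where tapasin (Tapbp) and its relative TAPBPR (Tapbpl) help class I molecules take up well-fitting ones. NLRC5 is the transactivator that drives transcription of class I genes and of several of these partners, and DCs are known for high expression of the whole pathway.

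All 9 measured genes had a mean below the untreated level after antibiotics, with log2 fold changes from -0.47 to -0.018 and a median of -0.12, where the median over all 6331 rows was 0.017, and Tapbp lay above at 0.054 when arrays were scaled by their medians. Over all rows, 46.4% lay below the untreated level. No gene of the 9 passed the test: in limma, adjusted by Benjamini-Hochberg over all rows, 0 of the 9 and 0 of the 6331 (0%) reached an adjusted p of 0.05. At an unadjusted p under 0.05, 1 of the 9 was lower and 0 were higher, against 7.74% of all rows in either direction, 4.33% lower and 3.41% higher. That gene was Nlrc5. The groups did not overlap for 1 of the 9, again Nlrc5, against 13.7% of all rows, where 6.62% were lower and 7.12% higher, and 1 gene of 9 is too few to be set apart from these shares. Fewer cells of a DC type in a sort and less RNA per cell cannot be told apart in such bulk samples.

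**Figure D1:**
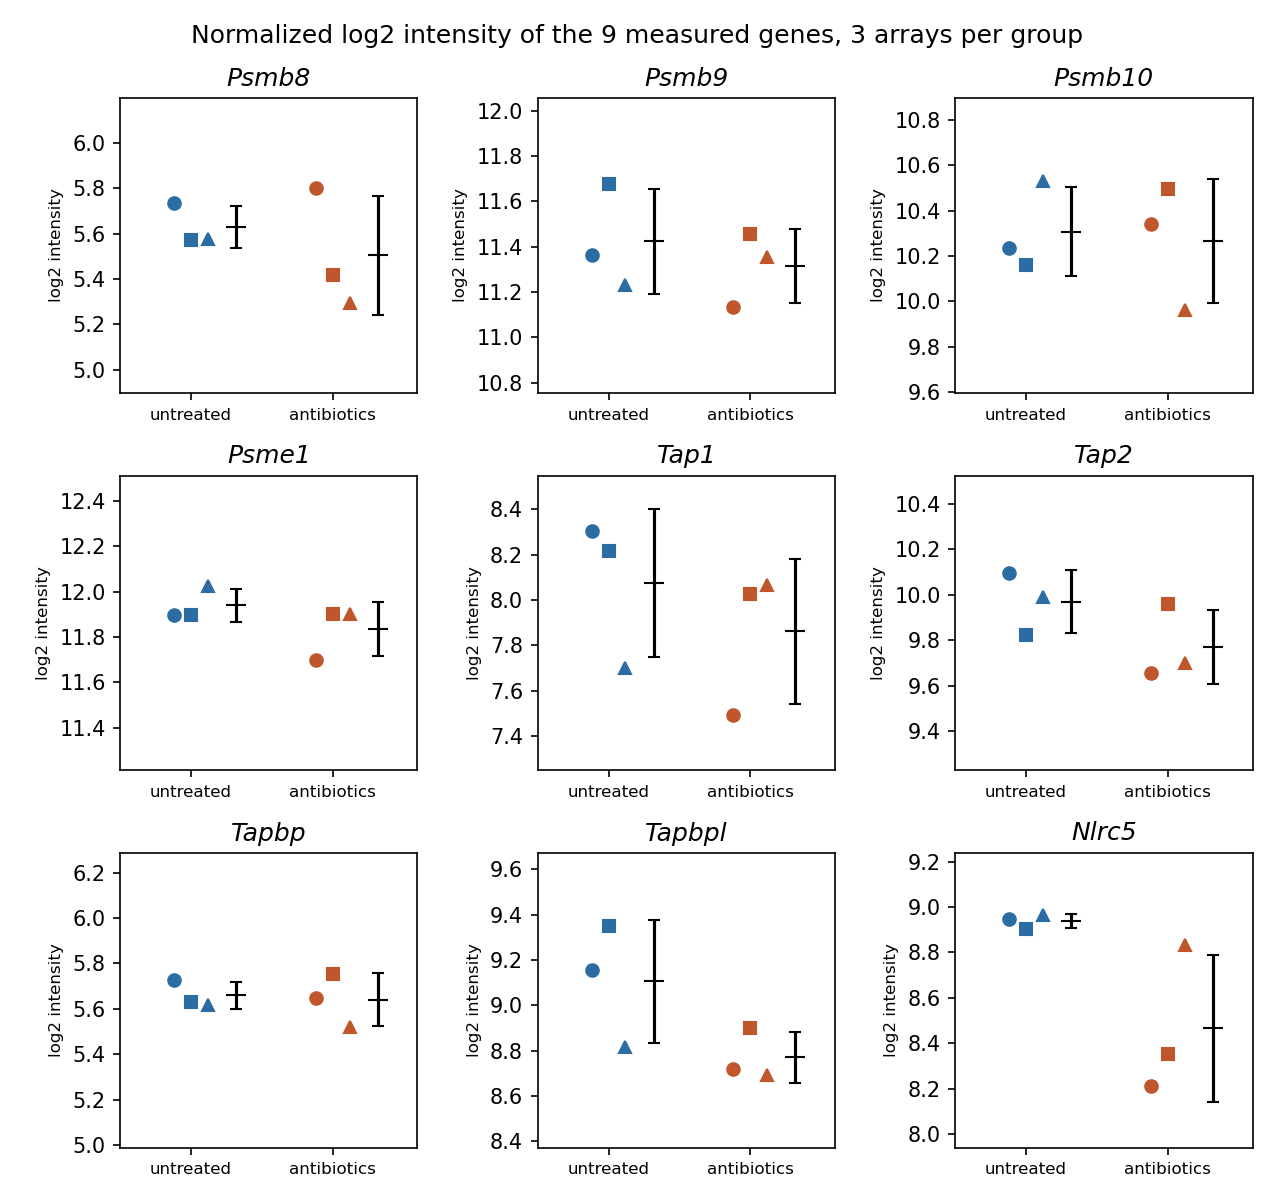
Normalized log2 intensity (vertical axes, each spanning the same range) of the 9 measured genes on the 3 untreated and 3 antibiotics arrays; circles, squares and triangles are replicates 1, 2 and 3, and the bars show the mean ± SD. Nlrc5 is the gene whose 3 antibiotics values (8.21, 8.35 and 8.83) all lie below the 3 untreated ones (8.90 to 8.96); in the other panels the groups overlap.

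Nlrc5, the transactivator, had the largest difference of the 9. Its normalized log2 intensity was 8.21, 8.35 and 8.83 on antibiotics replicates 1, 2 and 3 and 8.95, 8.90 and 8.96 on the untreated replicates, or 8.46 ± 0.32 against 8.94 ± 0.031 (SD, n = 3 each). The untreated arrays lay close together, while the antibiotics arrays spread widely, with replicate 3 just under the untreated values. The log2 fold change was -0.47 (SE 0.18, 95% interval -0.89 to -0.060), 0.72-fold on the linear scale, with an unadjusted limma p of 0.0293 and an adjusted p of 0.575. By p it ranked 322 among the 6331 rows. The authors' normalized table, on a linear scale, gave 242, 269 and 381 with antibiotics and 416, 403 and 421 without, the same separation. Leaving out 1 array moved the fold change between -0.66 (without antibiotics replicate 3) and -0.35 (without antibiotics replicate 1), and the unadjusted p stayed under 0.05 only without antibiotics replicate 3.

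Psmb9, Tap1, Psmb8 and Tap2 are consecutive protein-coding genes on chromosome 17 in RefSeq (GRCm38.p6), in the class II region of the MHC, and Tapbp lies on the same chromosome. Psmb10 and Nlrc5 lie on chromosome 8, Psme1 and Psme2 on chromosome 14 with Emc9 between them, and Tapbpl on chromosome 6. Psmb9 and Tap1 start next to each other on opposite strands, so that their promoter windows (250 bases before to 50 after the start site) share 275 bases, and both are textbook interferon-induced genes. The RefSeq table of promoters held windows for 7 of the 10 genes. Those of Tap1 (chr17:34187306-34187605, plus strand, GRCm38.p6), which is nearly all of Psmb9's as well, and of Psme1 (chr14:55578244-55578543, plus strand, GRCm38.p6) are shown because the first serves a pair of genes and the second holds the one match to an interferon motif. Each is written 5′ to 3′, and capitals mark GAAA followed after any 2 bases by a second GAAA, the core of the interferon-stimulated response element that IRF factors bind, on either strand.
Tap1: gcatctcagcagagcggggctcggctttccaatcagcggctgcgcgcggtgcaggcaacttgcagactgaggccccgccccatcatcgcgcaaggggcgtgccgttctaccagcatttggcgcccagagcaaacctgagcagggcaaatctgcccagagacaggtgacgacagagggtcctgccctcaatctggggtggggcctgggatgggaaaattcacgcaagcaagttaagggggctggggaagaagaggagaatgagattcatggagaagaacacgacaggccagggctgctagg
Psme1: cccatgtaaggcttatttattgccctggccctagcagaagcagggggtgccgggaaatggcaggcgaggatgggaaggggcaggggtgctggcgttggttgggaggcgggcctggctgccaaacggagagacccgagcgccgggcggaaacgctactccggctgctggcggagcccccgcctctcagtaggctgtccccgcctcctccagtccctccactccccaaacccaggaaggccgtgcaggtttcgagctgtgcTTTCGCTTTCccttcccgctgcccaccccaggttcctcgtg
The capitals in Psme1 are the motif on the minus strand, just after the start site. Among the 7 genes 1 held the motif, and 3.44% of all 32851 promoter windows did. The GC box core GGGCGG, read on both strands, was in the windows of 5 of the 7 genes and in 35.7% of all windows. Tap1 and Psmb9 count with the same GC box, which lies in the stretch their windows share, so the 5 genes are not 5 separate matches. The motifs were counted separately and can share no more than an end base. A match describes the letters only.

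Among the catalytic subunits of the immunoproteasome, Psmb9 (LMP2) gave bright signals, with normalized log2 values of 11.13, 11.46 and 11.36 with antibiotics and 11.36, 11.68 and 11.23 without. The groups overlapped, and the log2 fold change was -0.11 (SE 0.17, limma adjusted p = 0.895). Psmb8 (LMP7) lay at 5.80, 5.42 and 5.30 with antibiotics and at 5.74, 5.57 and 5.58 without. Its probe was dim, with deposited intensities of 112 to 126 where the array medians were 84.7 to 89.2, though it was detected on every array. At such signals a fold change is understated, and the value of -0.12 (SE 0.17, limma adjusted p = 0.877) has an interval from -0.51 to 0.26. Single arrays moved it either way, to -0.27 without antibiotics replicate 1, which held the highest Psmb8 value of the 6, and to -0.019 without antibiotics replicate 3, which held the lowest. It was -0.070 without untreated replicate 1.

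Psmb10 (MECL-1) showed the smallest difference of the 3. Its brighter probe gave 10.34, 10.49 and 9.96 with antibiotics and 10.23, 10.16 and 10.53 without, a log2 fold change of -0.042 (SE 0.18, limma adjusted p = 0.971), and its other probe gave 3.25e-04. Its sign depended on either of 2 arrays: leaving out antibiotics replicate 3 gave 0.11, and leaving out untreated replicate 3 gave 0.069. Without untreated replicate 2, which held the highest Psmb9 value, the fold change of Psmb9 was 0.019, and without antibiotics replicate 1, which held the lowest, it was -0.018.

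Psme1, the alpha subunit of PA28, was represented by probes that differed in size. The brighter gave 11.70, 11.90 and 11.90 with antibiotics and 11.90, 11.90 and 12.02 without, a log2 fold change of -0.10 (SE 0.14, limma adjusted p = 0.875). The other gave 9.65, 9.27 and 9.46 with antibiotics and 9.76, 10.22 and 9.70 without, so that its groups did not overlap. Its log2 fold change was -0.43 (SE 0.19, limma unadjusted p = 0.0458 and adjusted p = 0.626 in a fit of all 7507 kept probes). On the brighter probe antibiotics replicate 1 lay lowest and untreated replicate 3 highest, with the other 4 arrays nearly equal. The fold change on that probe was -0.036 without the first of these arrays and -0.061 without the second. The sources used here do not say which part of the transcript each probe reads.

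Both TAP genes had means below the untreated ones by a similar amount, with overlapping groups. Tap1 stood at 7.49, 8.03 and 8.07 with antibiotics and at 8.31, 8.22 and 7.70 without. Its SD of 0.32 and 0.33 exceeded its log2 fold change of -0.21 (SE 0.22, limma adjusted p = 0.845). One low array in each group, antibiotics replicate 1 and untreated replicate 3, set that spread, and the fold change was -0.028 without the first and -0.40 without the second. Tap2 was steadier, at 9.66, 9.96 and 9.70 with antibiotics and 10.10, 9.82 and 9.99 without, with a log2 fold change of -0.20 (SE 0.15, limma adjusted p = 0.799). It lay between -0.29 and -0.13 when single arrays were left out, below the untreated level each time, and the groups overlapped through antibiotics replicate 2 and untreated replicate 2.

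Among the peptide editors of the endoplasmic reticulum, Tapbpl (TAPBPR) had the second largest difference of the 9, with 8.72, 8.90 and 8.69 with antibiotics against 9.16, 9.35 and 8.81 without. The groups overlapped only through untreated replicate 3, which lay under antibiotics replicate 2. The log2 fold change was -0.34 (SE 0.17, 95% interval -0.73 to 0.057, limma adjusted p = 0.702), and -0.48 without untreated replicate 3. It was -0.21 without untreated replicate 2. Its other 2 probes were detected on 0 arrays. Tapbp (tapasin) was dim, at 5.65, 5.76 and 5.52 with antibiotics and 5.73, 5.63 and 5.62 without, a log2 fold change of -0.018 (SE 0.14, limma adjusted p = 0.985). A still dimmer probe of Tapbp, detected on 2 of 3 antibiotics arrays and all untreated ones, gave -0.29 (SE 0.24).

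**Figure D2:**
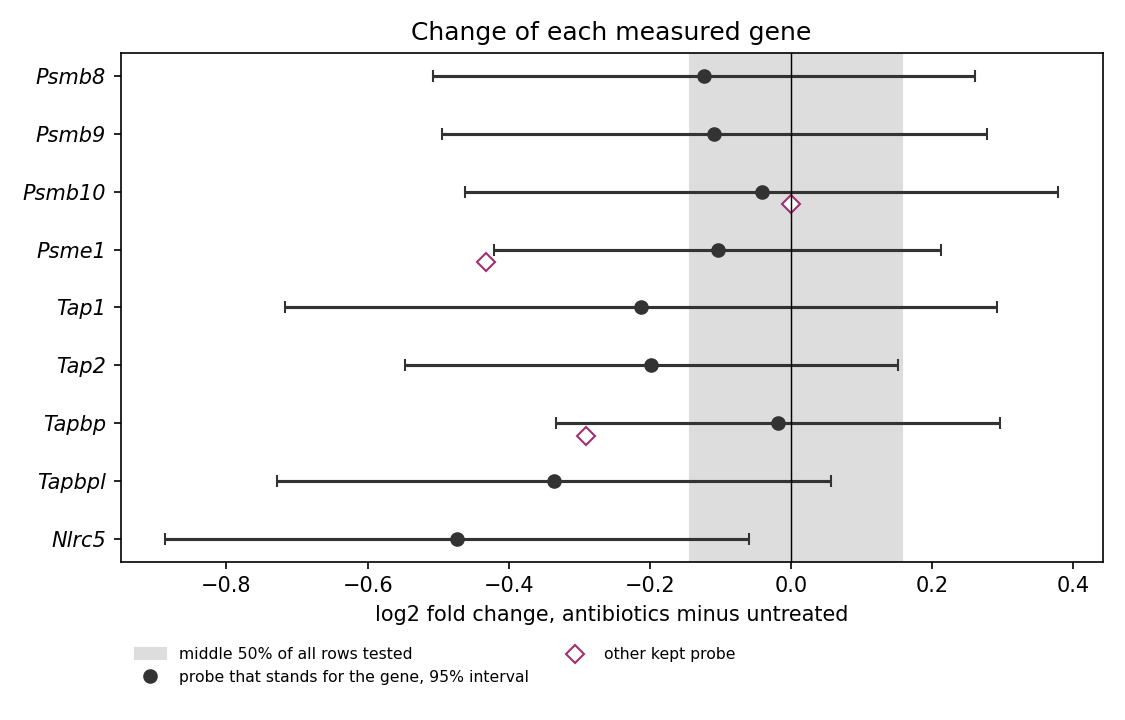
Log2 fold change (antibiotics minus untreated, horizontal axis) of each measured gene with limma's 95% interval; diamonds are other kept probes of the same gene, and the grey band holds the middle 50% of all rows tested (-0.14 to 0.16). Every point lies at or left of 0 except the second Psmb10 probe at 3.25e-04, and among the 9 intervals drawn only that of Nlrc5 (-0.89 to -0.060) leaves out 0. The diamonds carry no interval, and the one of Psme1 at -0.43 had an unadjusted limma p of 0.0458.

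To see whether the inducible subunits moved apart from the constitutive ones they replace, their log2 ratio was taken within each array. The constitutive catalytic genes lay below the untreated level by similar amounts, Psmb5 at -0.064 (SE 0.13), Psmb6 at -0.13 (SE 0.15) and Psmb7 at -0.19 (SE 0.18). The activator genes Psme3 and Psme4 stood at -0.22 (SE 0.16) and 0.089 (SE 0.14). Of these 5 genes 4 were lower, at a median of -0.13, close to the -0.12 of the 9 genes. Psmb8 over Psmb5 was -1.23, -1.63 and -1.69 with antibiotics and -1.31, -1.45 and -1.61 without, a difference of -0.060 (SE 0.17) with a two-sided exact permutation p of 0.80. Psmb9 over Psmb6 differed by 0.018 (SE 0.17, exact permutation p = 1) and Psmb10 over Psmb7 by 0.15 (SE 0.20, exact permutation p = 0.50). For PA28, Psme1 over Psme3, which encodes the gamma activator subunit, differed by 0.11 (SE 0.11, exact permutation p = 0.40). Psme3 served as a relative of Psme1 and not as a subunit that it replaces. Adjusted over the 4 pairs, each p was 1. With 3 arrays against 3 no p can go below 0.10. The groups overlapped in all 4 ratios, and standard errors of up to 0.20 limit what these ratios can show. A level of one probe is not comparable with that of another, so that only the change of each ratio, not its size, carries information.

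**Figure D3:**
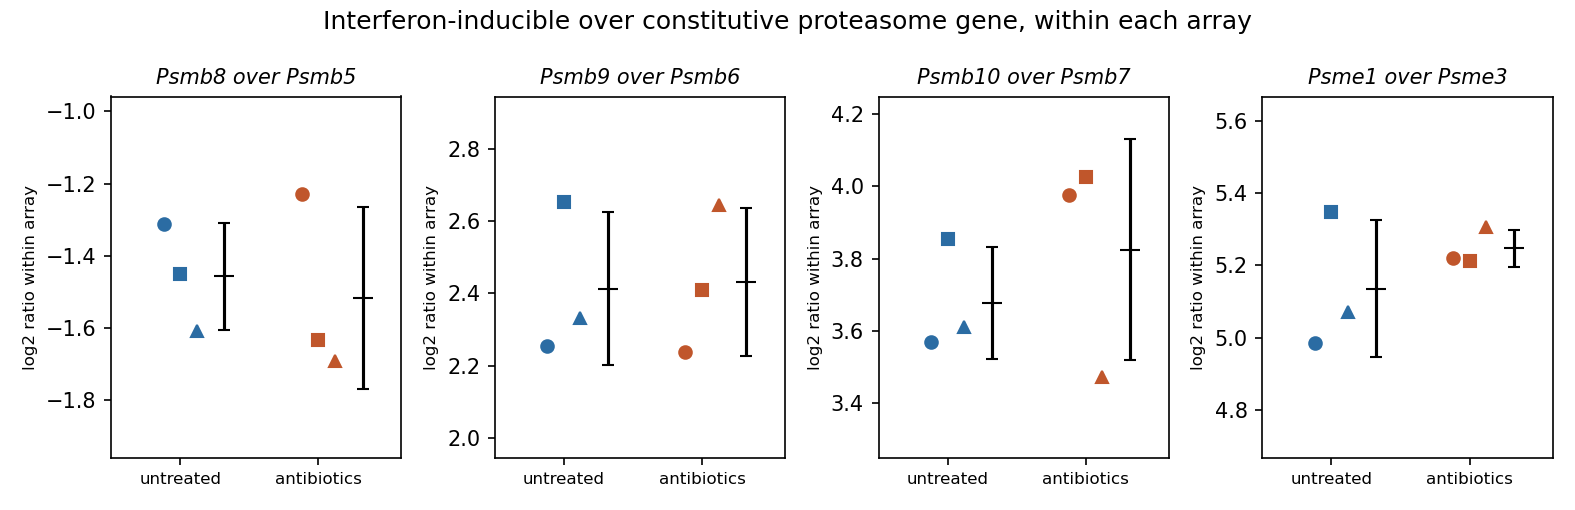
Log2 ratio within each array (vertical axes, each spanning the same range) of Psmb8, Psmb9, Psmb10 and Psme1 over a constitutive relative; circles, squares and triangles are replicates 1, 2 and 3, and the bars show the mean ± SD. The groups overlap in all 4 panels, with differences of -0.060, 0.018, 0.15 and 0.11.

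Averaged over the 9 genes, the normalized log2 level was 8.74, 8.92 and 8.81 on the antibiotics arrays and 9.05, 9.03 and 8.94 on the untreated ones, or 8.83 ± 0.088 against 9.01 ± 0.059 (SD, n = 3 each). The 3 antibiotics arrays lay below the 3 untreated ones, with antibiotics replicate 2 just under untreated replicate 3. This separation rested on Nlrc5. Averaged over the other 8 genes the levels were 8.81, 8.99 and 8.81 with antibiotics and 9.06, 9.04 and 8.94 without, and antibiotics replicate 2 lay above untreated replicate 3.

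The class I chains that receive the peptides lay lower too. Of the 7 measured, 6 were below the untreated level, and the median log2 fold change was -0.25. At an unadjusted limma p under 0.05, 2 of the 7 were lower, against 4.33% of all rows. Those 2 were H2-Q8 at -0.55 (SE 0.14) and H2-D1 at -0.40 (SE 0.15). For 5 of the 7 the groups did not overlap, all lower, against 6.62% of all rows. H2-Q7 stood at -0.31 (SE 0.15). H2 genes are close relatives whose probes can share signal, so the H2 values are not separate measurements. B2m, which is not an H2 gene, stood at -0.15 (SE 0.13), lower without overlap. The other steps of the pathway lay on both sides. Of 13 measured subunits and assembly factors of the 20S core, 10 were higher and 3 lower (median 0.084), with 0 at an unadjusted p under 0.05. The core subunit genes Psmb2 and Psma3 stood at 0.28 and 0.19 without overlap, and Psma4 at -0.36. Those 2 of 13 stand against 7.12% of all rows that were higher without overlap. On a list of chaperones and other proteins of the endoplasmic reticulum, 4 of 5 measured genes were higher (median 0.12). Among them were Sec61a1, a translocon subunit, at 0.12 and Bcap31 at 0.16. Pdia3 was the 1 lower gene, at -0.017 (SE 0.23), and the chaperone genes Calr, Canx, Pdia6 and Hspa5 were not measured. The peptide trimming list had 2 of 4 lower, with Blmh, bleomycin hydrolase, at -0.24, and Erap1, the aminopeptidase that trims class I peptides in the endoplasmic reticulum, was not measured.

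Regulators of the class I genes other than Nlrc5 lay on both sides, 7 of 13 lower at a median of -0.046, with 0 at an unadjusted p under 0.05. Irf1, an interferon-induced activator of Tap1 and Psmb9, stood at 11.67 ± 0.035 against 11.78 ± 0.091 (SD, n = 3), a log2 fold change of -0.11 (SE 0.13). Irf2, which binds the same motif, stood at 0.27 (SE 0.14) and Ciita, the class II transactivator, at -0.35 (SE 0.19), both without overlap. The interferon-gamma receptor gene Ifngr1 stood at 0.59 (SE 0.27) with overlapping groups. Of the 13, 3 were lower and 2 higher without overlap, against 6.62% and 7.12% of all rows.

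The order of the arrays by the 9-gene mean was close to that by 7 interferon response genes (Ifit3, Rsad2, Oas1g, Oasl2, Cmpk2, Irf7 and Usp18). The mean of those 7 was 7.07, 7.32 and 7.33 with antibiotics and 8.25, 8.13 and 7.77 without. In both lists antibiotics replicate 1 was lowest, the untreated arrays stood in the order replicate 3, 2 and 1 from low to high, and only antibiotics replicates 2 and 3 changed places. Without Nlrc5 the likeness was less close, since antibiotics replicate 2 then also lay above untreated replicate 3 (8.99 against 8.94). The first principal component over all rows, with 33.5% of the variance, ranked the 6 arrays exactly as the 9-gene mean did. It stood at -25.3, 1.91 and 1.36 on antibiotics replicates 1, 2 and 3 and at 11.5, 7.31 and 3.20 on the untreated ones. All rows include both lists, the sign of a component is arbitrary, and antibiotics replicate 1 lay far from the other arrays. This order of the arrays is therefore not shown to be particular to the interferon response genes. The median log2 fold change was -0.79 over the 7 interferon response genes, all lower, and -0.12 over the 9, a difference in size that was not tested. Among 4675 rows detected on all arrays and at least as variable as the 9-gene mean, the row whose deviations were closest to it over the 6 arrays was Plscr1, phospholipid scramblase 1, at a root mean square difference of 0.030 log2 units. The next were Dnajc2 (0.046), Helb (0.047), 2610507B11Rik (0.049) and Rassf1 (0.051). Plscr1 had a log2 fold change of -0.22 (SE 0.13, limma adjusted p = 0.751) without overlap between the groups. Because it was picked for its likeness to the 9-gene mean, its direction and separation are no separate result.

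**Figure D4:**
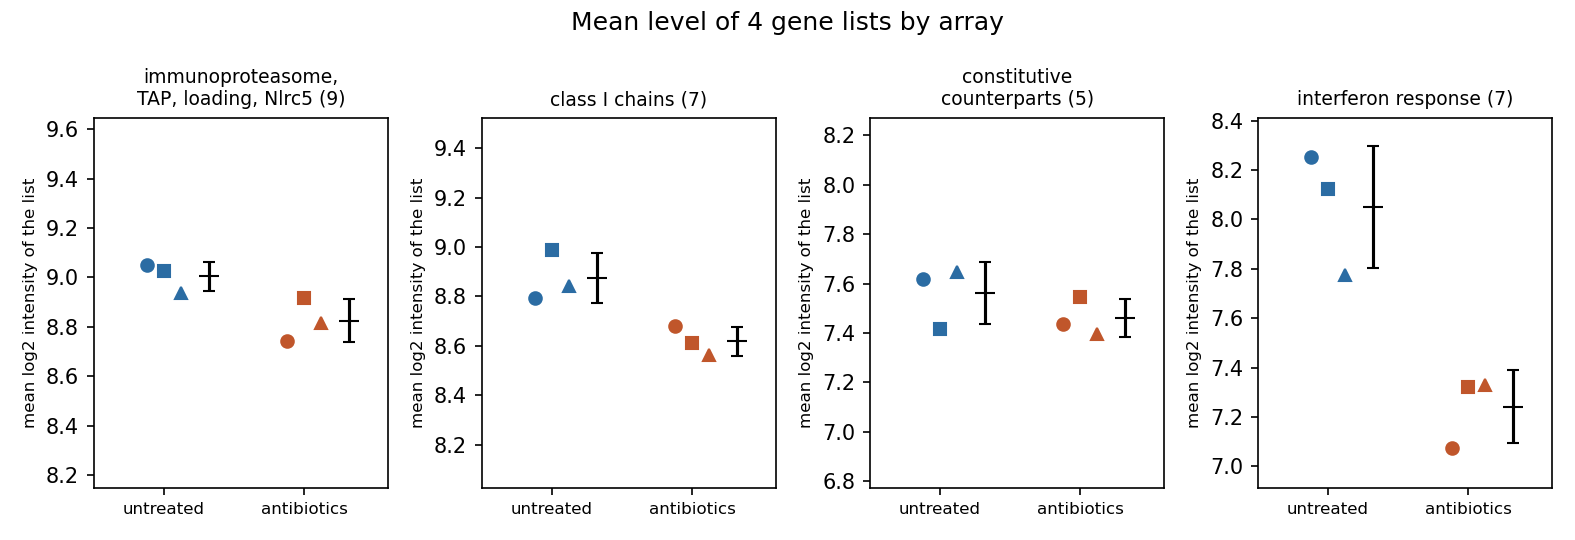
Mean normalized log2 intensity (vertical axes, each spanning the same range) of gene lists. They are the 9 measured genes, 7 class I chains, 5 constitutive genes and 7 interferon response genes. The 5, titled constitutive counterparts, are the catalytic genes Psmb5, Psmb6 and Psmb7 and the activator genes Psme3 and Psme4. Symbols are replicates and bars the mean ± SD. The antibiotics arrays lie below the untreated ones for the 9 genes, the class I chains and the interferon response genes, with the widest gap in the last (7.07 to 7.33 against 7.77 to 8.25).

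Markers of DC subsets and of other cells are given beside these values, and none passed an adjusted p of 0.05. Of 10 cDC1 markers 5 were measured and all 5 were higher with antibiotics, their mean level being 7.67 to 7.81 against 7.31 to 7.52. The adhesion molecule gene Cadm1 stood at 0.78 (SE 0.19), and the chemokine receptor gene Xcr1 at 0.32 (SE 0.27). Xcr1 was detected on only 2 antibiotics arrays and 1 untreated array. Batf3 stood at 0.025 (SE 0.14), and Clec9a was not measured. Of 3 Langerhans cell markers 2 were measured and both were higher, at 6.61 to 6.75 against 5.88 to 6.57. The defining gene Cd207 (langerin) stood at 0.74 (SE 0.27, limma unadjusted p = 0.0242, adjusted p = 0.565) with overlapping groups, and Epcam was not measured. Of 7 cDC2 markers 4 were measured, 2 higher and 2 lower, at 7.44 to 7.58 against 7.26 to 7.81. Of 7 plasmacytoid DC markers 3 were measured and all 3 were lower, at 6.45 to 6.58 against 6.58 to 6.90, with the defining gene Siglech not measured. Of 7 B cell markers 2 were measured and both were lower, at 6.25 to 6.56 against 6.68 to 7.02. Cd22 stood at -0.79 (SE 0.25) and Cd79b at -0.057 (SE 0.14). Of 7 T cell markers only Cd28 was measured, at 5.02 to 5.26 against 5.04 to 5.10. Of 6 NK cell markers 2 were measured, Prf1 higher and Klrk1 lower, at 6.01 to 6.50 against 5.75 to 6.30 on average. Of 9 macrophage and monocyte markers 4 were measured and all 4 were higher, at 7.52 to 7.87 against 7.27 to 7.71, with the lysozyme gene Lyz2 at 0.54 (SE 0.18) and Csf1r not measured. C1qa and C1qb stood at only 0.029 (SE 0.15) and 0.018 (SE 0.29). The part of these cells in the levels of the 9 genes was not tested.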

How the data were processed

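Total RNA of 6 sorted DC samples carried a biotin label, per the labels' protocols, and was measured on an Illumina bead array. The authors deposited probe intensity that was neither background-corrected nor normalized, per the file headers and its values, and a detection p-value per probe and array, per the file headers. They also deposited normalized intensity on a linear scale, with 44.6% of values under 0, by steps that the sources do not give. All 154182 cells of the series' value table were equal to it, with array medians of 1.1 to 1.2, so that it is linear and not centred. From the non-normalized intensity, limma 3.58.1 in R 4.3.3 (neqc: normexp background inferred from detection p, offset 16, quantile normalization) gave log2 values. Quantile normalization hides a shift common to all genes, and fold changes of dim probes are understated.

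Probes detected at p under 0.05 on at least 3 arrays were kept, 7507 in all, and the probe with the highest mean stood for a gene. The annotation gave 1 symbol to 23978 probes and none to 1719. Groups were compared with lmFit and eBayes, adjusted by Benjamini-Hochberg over 6331 rows, and ratios by exact permutation tests. The script was tested on simulated data. The number of arrays limits the precision. A genome build is not given in the sources; promoter windows are those of RefSeq GRCm38.p6.

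The members and lists were chosen with earlier results of these data known. The rule for named genes took every member, up to 3 genes per pathway list by smallest p, and the 5 rows most like the members' mean. Irf1, Psmb5 and the cell type markers were named for their role. Pdia3, B2m and genes given as not measured were named as well. Alternatives covered background, normalization, filters, probes, table, weights, pairing and single arrays.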

Additional observations from a re-analysis of the deposited data

How the results depend on the processing

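Over 16 other settings the 9 genes gave 144 fold changes, of which 138 lay below 0 and 6 reversed. Changing the filter or adding the replicate block left each of these fold changes at its main value, and every setting reused the same arrays. The 144 are therefore not separate tests of direction. In limma 0 of all rows passed an adjusted p of 0.05 in any setting. At an unadjusted p under 0.05 were 341 of 6331 rows without untreated replicate 2, 690 of 6331 with array weights and 1094 of 18312 without the filter on dim probes. The reversed values were Tapbp at 0.054 with median scaling, and, without single arrays, highs of 0.11 for Psmb10 (low -0.16), 0.019 for Psmb9 (low -0.20) and 0.043 for Tapbp (low -0.075). The median over the 9 genes was -0.20 both with the authors' normalized table and with the mean of kept probes. With the other kept probe of Tapbp, Psmb10 and Psme1, chosen after seeing the data, it was -0.21. It was -0.12 without Nlrc5, also chosen after seeing the data, and ran from -0.19 to -0.078 without single arrays. Without single arrays 7 to 9 of the genes lay below the untreated level, against 46.3% to 48.9% of all rows. In the same settings 0 to 1 were at an unadjusted limma p under 0.05, against 341 to 549 of 6331 rows, and 1 to 3 did not overlap. The last count was 2 with the mean of kept probes. The share of all rows without overlap was not counted in these settings. Groups separate more easily with 2 arrays than with 3, so the rise to 3 genes is not read as a change. The count of the 9 genes at an unadjusted p under 0.05 was 1 without replicate 3 of either group and 0 without any other array. With array weights, and without untreated replicate 3, that 1 gene was Tapbpl in place of Nlrc5. The ratio differences without single arrays ran from -0.20 to 0.027 for Psmb8 over Psmb5, -0.090 to 0.14 for Psmb9 over Psmb6, 0.046 to 0.32 for Psmb10 over Psmb7 and 0.037 to 0.22 for Psme1 over Psme3, which was -0.053 with the mean of kept probes. The cause of these shifts was not tested. Replicate numbers did not pair the arrays (correlations of same-numbered deviations -0.15 to -0.046, 0 of 6 arrays closest to their own number), and with the replicate block the median stayed at -0.12, Nlrc5 had an unadjusted limma p of 0.0373 and 0 rows passed. Without the filter on dim probes Psme2 stood at 0.039, at background signal.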
